A study of Rattus norvegicus with 6 samples.

Results

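Autophagy is the process by which a cell encloses part of its cytoplasm in a double membrane, the autophagosome, and delivers it to the lysosome for digestion. A kinase complex and a lipid kinase complex start the membrane, a pair of ubiquitin-like conjugation systems attach the LC3 and GABARAP proteins to it, and cargo receptors tie cargo to those proteins. Mitophagy is the removal of mitochondria by this route, and in heart muscle, which is dense with mitochondria, it takes out damaged ones. Withdrawal of nutrients and growth factors is a classical trigger of autophagy, and the transcription factor Tfeb raises the expression of many lysosome genes. The activity of the pathway is set largely by changes of protein and membrane, which arrays do not measure.

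The transcripts of 37 genes of these processes were followed, out of 15168 genes with a named probe on the array. The genes were listed by name and role: 9 of initiation, 13 of conjugation and cargo binding, 4 of mitophagy and 11 of the lysosome. Probes were taken by the RefSeq accession they carry, and the brightest probe stood for a gene. No probe was matched to Atg13 or Atg4b, which were not analysed here, and the other 35 genes were all well above background on each of the 6 arrays.

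The cells were primary ventricular myocytes of male rats of the Sprague-Dawley strain, 1 to 2 days old, preplated and grown with 5-bromodeoxyuridine to hold back fibroblasts. The si-uc.323 group, 3 cultures, received an siRNA against uc.323, a non-coding RNA copied from an ultraconserved stretch of the genome, and the si-scramble group, 3 cultures, received a scrambled siRNA. Both groups were cultured for 36 h, exposed to 50 nmol/L siRNA in medium without serum for 3 h, kept without serum for 21 h more and collected 24 h after transfection, so serum withdrawal was common to both. A single siRNA sequence was used, shown because it is the agent that separates the groups, and the level of uc.323 itself was not analysed here.
si-uc.323 strand given by the labels: gguaaguaauuucagcaau

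Each culture had 1 one-colour array. The arrays of si-scramble and of si-uc.323 replicate 1 lay on slide 1 and those of si-uc.323 replicates 2 and 3 on slide 2, where 78.2% and 86.5% of probes were well above background, against 71.8% to 73.9% on slide 1. Values are log2 intensities relative to the 75th percentile of the array, so 0 is that percentile, and they are compared between groups for the same probe, never between probes. Of 11580 genes tested, 711 passed an adjusted p of 0.05 (limma, Benjamini-Hochberg over all features), 377 higher and 334 lower with si-uc.323. All 8 of 8 cardiomyocyte markers of the labelled cell type were measured above background, with Actc1 lower in si-uc.323 cultures (-0.63, adjusted p = 0.0314). Summed linear signal of those markers, in multiples of the 75th percentile, was 232 to 254 in si-uc.323 cultures and 269 to 282 in si-scramble cultures. Of the 8 markers, 4 had positive and 4 negative differences, which were unlike in size. The 4 negative ones (Actc1, Ryr2 at -0.46, Tnni3 at -0.34 and Pln at -0.29) had groups apart. The 4 positive ones, at 0.01 to 0.11, had overlapping groups. Without Actc1 the sums overlapped, at 189 to 216 in si-uc.323 cultures and 208 to 216 in si-scramble cultures.

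Of the 35 measured genes, 1 rose and 1 fell with si-uc.323 at an adjusted p under 0.05. The gene that rose was Becn1, the scaffold of the lipid kinase complex that starts the autophagosome, and the gene that fell was Pink1, the kinase that marks damaged mitochondria. These calls make up 5.71% of the measured genes, beside 6.14% of all genes tested (3.26% called higher and 2.88% called lower), so the share of called genes was near that of the array as a whole. At an unadjusted p under 0.05 stood 11 genes, or 31.4%, beside 30.1% of all genes. For 16 genes (45.7%) the si-uc.323 values were all above or all below the si-scramble values, 8 higher and 8 lower, beside 39.1% of all genes (20.1% higher and 19% lower). The median log2 fold change was 0.07, beside 0.02 for all genes. It changed sign with normexp background correction (-0.017) and with a shift of each array to its median (-0.033), which moved the median of all genes to -0.08.

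No measured gene of the set changed by as much as 2-fold in its point estimate, the extremes being 1.72-fold higher (Becn1) and 1.49-fold lower (Ctsk). The unadjusted 95% interval lay inside a 2-fold change in either direction for 33 of the 35. The exceptions were Becn1 and Atg5, whose intervals reached 1.18 and 1.01 on the log2 scale.

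**Figure D1:**
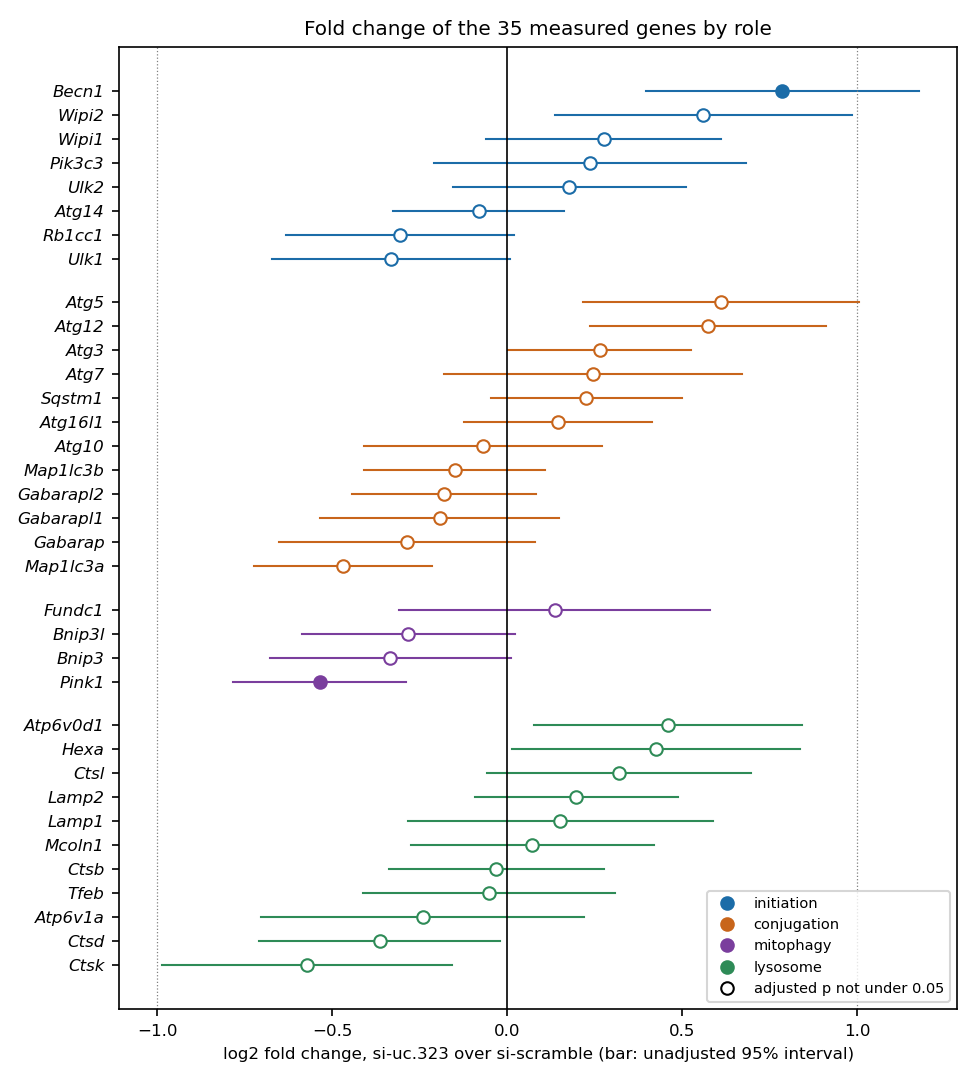
Log2 fold change (x axis, si-uc.323 over si-scramble, 3 arrays each) of the 35 measured genes, arranged by role from initiation at the top to the lysosome at the bottom. Bars are unadjusted 95% intervals, filled points have an adjusted p under 0.05 (Becn1 and Pink1), and dotted lines mark a 2-fold change, which the interval of Becn1 at 1.18 passes.

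Initiation came first in the list. Becn1 read -0.44, -0.53 and 0.0024 in si-uc.323 cultures, against -1.19, -1.17 and -0.97 in si-scramble cultures. Each si-uc.323 value lay above each si-scramble value, and the culture of replicate 3 was the highest. The log2 fold change was 0.79 ± 0.17 (SE, n = 3 and 3 arrays), a 1.72-fold rise (adjusted p = 0.0441, limma). On slide 1 alone, where si-uc.323 was represented by replicate 1, it was 0.67 (adjusted p = 0.0794, and 0.275 with the slide as a block), and with no background filter the adjusted p was 0.131. The rise no longer passed when any si-scramble array was left out (adjusted p = 0.156, 0.147 and 0.156 without replicates 1, 2 and 3), or without si-uc.323 replicate 1 (0.0558) or 3 (0.0566), while the log2 fold change stayed between 0.62 and 0.89 under 17 alternative settings.

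Pik3c3, the catalytic lipid kinase that Becn1 binds, differed by 0.24 ± 0.19 on the log2 scale, with overlapping groups (adjusted p = 0.451). Atg14, the subunit that directs that complex to the site of autophagosome formation, was at -0.08 ± 0.10 (adjusted p = 0.646), with an unadjusted 95% interval of -0.33 to 0.16. Its dimmer probe, at a mean log2 signal of -5.73, read -0.74. That probe was well above background on 2 si-uc.323 and 3 si-scramble arrays. With the brightest probe, neither partner of Becn1 therefore passed the test in these cultures. Whether the response of Becn1 differed from that of its partners was not tested.

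The WIPI proteins bind the lipid that this kinase makes. Wipi2, which recruits the conjugation machinery through Atg16l1, read -2.95, -3.10 and -2.43 in si-uc.323 cultures, against -3.37, -3.36 and -3.43 in si-scramble cultures. Its groups did not overlap, but the si-uc.323 cultures ranged more widely, and the difference did not pass (0.56 ± 0.18, adjusted p = 0.104). Wipi1 was at 0.28 ± 0.14 (adjusted p = 0.252).

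The kinase complex upstream gave values of mixed sign. Ulk1, the kinase that starts autophagy when growth signals are withdrawn, read 2.84, 3.00 and 2.54 in si-uc.323 cultures, against 3.16, 3.03 and 3.19 in si-scramble cultures. Its groups were apart by a narrow margin between replicate 2 of each group, and the difference of -0.33 ± 0.14 did not pass (adjusted p = 0.187). Ulk2, its paralogue, read -2.90, -3.16 and -2.70 in si-uc.323 cultures, against -3.15, -3.09 and -3.04 in si-scramble cultures, values that overlapped and differed by 0.18 ± 0.14 (adjusted p = 0.45). Rb1cc1, the large scaffold of the complex, was at -0.31 ± 0.14 (adjusted p = 0.199). Among the 8 measured initiation genes the median was 0.21, with 5 positive and 3 negative values, and it was 0.21, -0.03 and 0.46 on si-uc.323 replicates 1, 2 and 3 relative to the si-scramble mean.

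**Figure D2:**
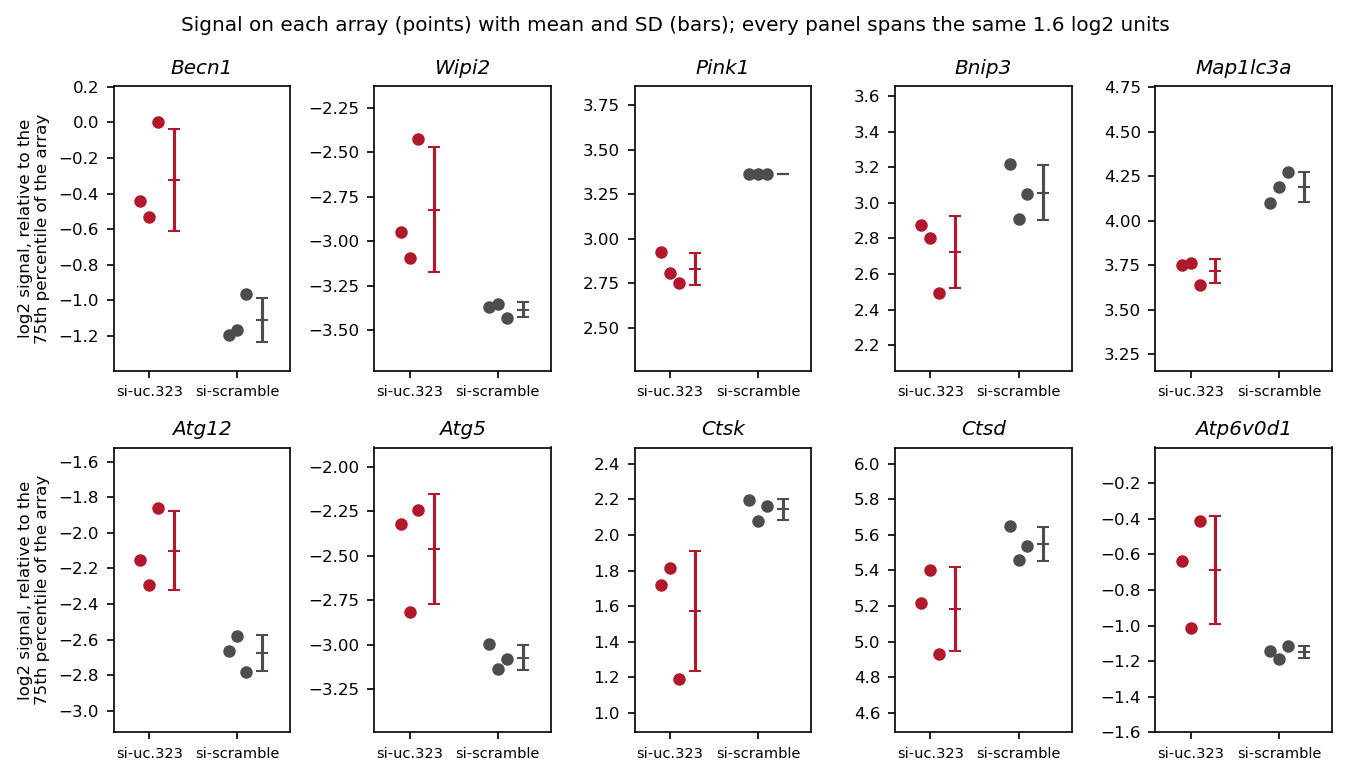
Log2 signal relative to the 75th percentile of the array (y axis, every panel 1.6 units tall) for 10 genes in si-uc.323 cultures (left) and si-scramble cultures (right), with mean and SD, n = 3 each. The 10 genes are among the 16 of the set whose groups do not overlap. The si-scramble values of Pink1 lie between 3.36 and 3.37. In every panel si-uc.323 replicate 3, on slide 2, lies farthest from the si-scramble values.

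In the conjugation group, 0 of 12 measured genes passed, 4 were at an unadjusted p under 0.05, and the median log2 fold change was 0.04. Genes that encode the conjugation enzymes and the Atg12, Atg5 and Atg16l1 assembly had positive values apart from Atg10. The 5 that encode the LC3 and GABARAP proteins had negative values with the brightest probe. Probes of those 5 had a mean log2 signal of 1.61 to 3.95, above the -4.97 to 1.19 of the enzymes and the assembly. The parts of function and of probe brightness in these signs were not tested.

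Atg12, the ubiquitin-like protein that is joined to Atg5, read -2.15, -2.29 and -1.86 in si-uc.323 cultures, against -2.66, -2.58 and -2.78 in si-scramble cultures (0.57 ± 0.14, adjusted p = 0.0618). Atg5, its acceptor, read -2.32, -2.82 and -2.25 in si-uc.323 cultures, against -2.996, -3.14 and -3.08 in si-scramble cultures (0.61 ± 0.17, adjusted p = 0.0742), and its second probe read 0.30. For both genes the groups were apart and neither difference passed. Without si-uc.323 replicate 2, the si-uc.323 value nearest to si-scramble in both genes, both passed (adjusted p = 0.0375 for Atg12 and 0.024 for Atg5), but leaving out that array also raised the calls over the whole array to 1859. Without si-uc.323 replicate 1 or 3 neither passed (adjusted p = 0.0865 and 0.0877 for Atg12, 0.126 and 0.145 for Atg5). Atg12 also passed with cyclic loess normalization (0.48, adjusted p = 0.044), and Atg5 did not (0.0766). With normexp the values were smaller, 0.31 for Atg12 and 0.42 for Atg5, and did not pass (adjusted p = 0.173 and 0.11). Atg16l1, which places this assembly on the membrane, was at 0.15 ± 0.11 (adjusted p = 0.441), with 0.53 on its dimmer probe.

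Of the enzymes, Atg3, which transfers LC3 to its lipid, was at 0.26 ± 0.11 (adjusted p = 0.176) with groups that did not overlap. Atg7, the activating enzyme shared by both conjugation systems, was at 0.25 ± 0.18 (adjusted p = 0.415), and at -0.11 with normexp. Atg10, which transfers Atg12, was at -0.07 ± 0.14 (adjusted p = 0.787), with 0.43 on its dimmer probe. Sqstm1, the cargo receptor p62, which is itself degraded by autophagy, was at 0.23 ± 0.12 (adjusted p = 0.249), with 0.17 on its other probe.

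Map1lc3a and Map1lc3b encode LC3A and LC3B, the proteins that mark autophagosomes. Map1lc3a read 3.75, 3.76 and 3.64 in si-uc.323 cultures, against 4.10, 4.19 and 4.27 in si-scramble cultures. These values were well apart, with a log2 fold change of -0.47 ± 0.11, and missed the threshold by little (adjusted p = 0.0527). They passed under 5 of 17 alternatives, which were normexp (-0.55, adjusted p = 0.0244), the median shift (-0.57, 0.046), the filter for probes above background on all arrays (0.0473), the mean over probes (0.0495) and the fit without si-uc.323 replicate 2 (0.0426). They did not pass without si-uc.323 replicate 1 (0.0811) or 3 (0.0799), with the replicate block (0.0978), on slide 1 (0.106), with the slide block (0.297) or with no background filter (0.137), nor under the other 6, where the adjusted p lay between 0.0521 and 0.238. Map1lc3b read 1.56, 1.42 and 1.63 in si-uc.323 cultures, against 1.74, 1.63 and 1.70 in si-scramble cultures, and these groups met at replicate 3 of si-uc.323 and replicate 2 of si-scramble. Its difference did not pass (-0.15 ± 0.11, adjusted p = 0.411), and its dimmer probe read 0.09. The difference between the LC3 genes was not tested.

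The GABARAP proteins form the other branch of the same family and act later in the growth and fusion of the autophagosome. Gabarap read 2.73, 2.26 and 2.44 in si-uc.323 cultures, against 2.83, 2.59 and 2.86 in si-scramble cultures, overlapping groups with a difference of -0.29 ± 0.16 (adjusted p = 0.274). Gabarapl1 read 3.23, 3.38 and 2.92 in si-uc.323 cultures, against 3.41, 3.27 and 3.43 in si-scramble cultures (-0.19 ± 0.15, adjusted p = 0.424), and these overlapped too. Gabarapl2 read 2.00, 2.13 and 2.08 in si-uc.323 cultures, against 2.37, 2.16 and 2.22 in si-scramble cultures (-0.18 ± 0.11, adjusted p = 0.333), the narrowest gap being that between replicate 2 of each group. None of the 3 passed. Averaging over probes turned the sign of Gabarapl1 (0.03) and Gabarapl2 (0.11), whose dimmest probes read 0.26 and 0.27.

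Mitophagy genes had the lowest median of the roles, -0.31 over 4 genes, with 1 called lower and 3 negative. The 3 negative ones, Pink1, Bnip3 and Bnip3l, had probes above 2 on the log2 scale, where all genes had a median of -0.12. A further 12 mitophagy genes outside the set had a median of 0.14, with 8 positive, 4 negative and 1 called higher. Relative to the si-scramble mean, the 4 genes had medians of -0.17 (si-uc.323 replicate 1), -0.27 (replicate 2) and -0.52 (replicate 3). Pink1 read 2.93, 2.81 and 2.75 in si-uc.323 cultures, against 3.36, 3.37 and 3.37 in si-scramble cultures. All si-uc.323 values lay below the si-scramble values, which differed among themselves by less than 0.01. Pink1 fell by 0.54 ± 0.10 on the log2 scale, to 1.45-fold lower (adjusted p = 0.0376, limma). On slide 1 alone the value was -0.44 (adjusted p = 0.0845, and 0.274 with the slide as a block). Neither the fit with the replicate number as a block (adjusted p = 0.0745) nor that with no background filter (0.115) kept the call. The decrease did not pass without any one of the si-scramble arrays (adjusted p = 0.15, 0.142 and 0.187 without replicates 1, 2 and 3), nor without si-uc.323 replicate 1 (0.0511) or 3 (0.0578), while the log2 fold change lay between -0.64 and -0.44 throughout the 17 alternatives.

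Bnip3 and Bnip3l encode receptors of the outer mitochondrial membrane that bind LC3 and GABARAP proteins directly, independently of the Pink1 route, and are induced by low oxygen. Bnip3 read 2.87, 2.80 and 2.49 in si-uc.323 cultures, against 3.22, 2.91 and 3.05 in si-scramble cultures (-0.33 ± 0.15, adjusted p = 0.19). Bnip3l read 2.38, 2.30 and 2.06 in si-uc.323 cultures, against 2.60, 2.40 and 2.58 in si-scramble cultures (-0.28 ± 0.13, adjusted p = 0.205). In both genes every si-uc.323 culture was below every si-scramble culture, yet neither passed. Fundc1, a further receptor of that membrane, read -2.07, -2.61 and -1.89 in si-uc.323 cultures, against -2.26, -2.35 and -2.37 in si-scramble cultures, with the si-uc.323 values on both sides of the others (0.14 ± 0.19, adjusted p = 0.676).

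**Figure D3:**
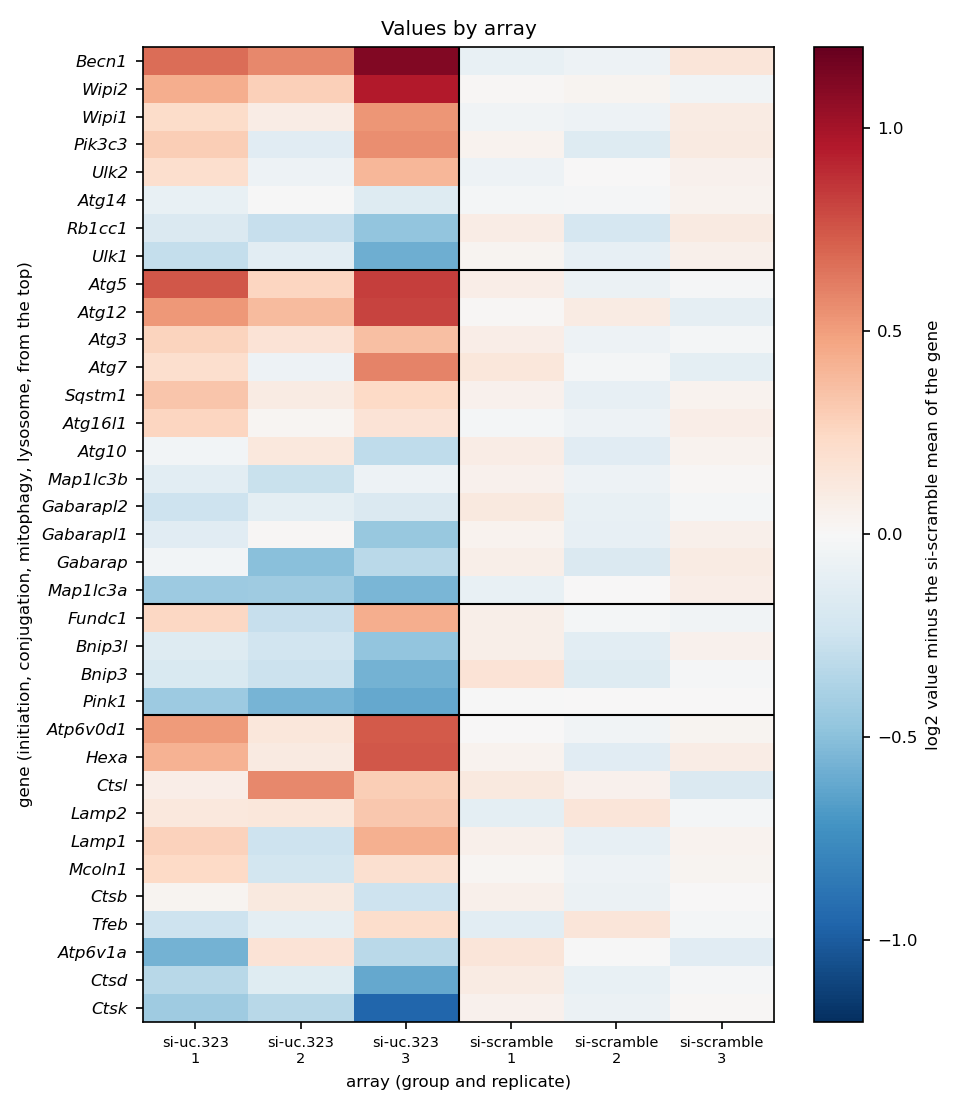
Log2 value of each of the 35 genes on each array minus the mean of that gene in the si-scramble cultures (colour), si-uc.323 arrays on the left. The si-uc.323 columns vary more than the si-scramble columns, and Becn1 on si-uc.323 replicate 3 has the largest deviation of the increases.

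Among the 11 lysosome genes none passed, with 4 at an unadjusted p under 0.05, a median of 0.07, 6 positive and 5 negative values. Tfeb itself was at -0.05 ± 0.15 (adjusted p = 0.852), with an unadjusted interval of -0.41 to 0.31. It read between -3.53 and -3.07 in si-uc.323 cultures and between -3.41 and -3.13 in si-scramble cultures, so the si-uc.323 values spanned the others. The array measures the Tfeb transcript, while the protein is regulated mainly by phosphorylation and entry to the nucleus.

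Cathepsins are the proteases of the lysosome. Ctsk, the collagen-degrading cathepsin K, known best from bone-resorbing osteoclasts, read 1.72, 1.81 and 1.19 in si-uc.323 cultures, against 2.19, 2.08 and 2.16 in si-scramble cultures. Its groups were apart, and the difference of -0.57 ± 0.18 did not pass (adjusted p = 0.0958). Ctsd, the aspartic protease cathepsin D, read 5.21, 5.40 and 4.93 in si-uc.323 cultures, against 5.65, 5.46 and 5.54 in si-scramble cultures (-0.36 ± 0.15, adjusted p = 0.16). Ctsl was at 0.32 ± 0.16 (adjusted p = 0.242), and Ctsb at -0.03 ± 0.13 (adjusted p = 0.899), with an interval of -0.34 to 0.28 and a sign that turned under 6 alternatives. The cathepsins thus did not share a sign.

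Of the membrane and acidification genes, Atp6v0d1, a subunit of the membrane sector of the proton pump, read -0.64, -1.01 and -0.41 in si-uc.323 cultures, against -1.14, -1.19 and -1.12 in si-scramble cultures. The groups were apart, with a difference of 0.46 ± 0.16 that did not pass (adjusted p = 0.125). Without si-uc.323 replicates 1, 2 and 3 in turn the adjusted p was 0.193, 0.0326 and 0.217. Atp6v1a, the catalytic subunit of the same pump, was at -0.24 ± 0.20 (adjusted p = 0.457), and its dimmer probe read 0.48. Hexa, a subunit of the hexosaminidase that digests gangliosides, was at 0.42 ± 0.18 (adjusted p = 0.169).

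Lamp1 and Lamp2 encode the major glycoproteins of the lysosomal membrane. Lamp1 read 0.57, 0.04 and 0.72 in si-uc.323 cultures, against 0.35, 0.19 and 0.33 in si-scramble cultures, with replicate 2 of si-uc.323 below the others and its replicates 1 and 3 above them (0.15 ± 0.19, adjusted p = 0.63). Lamp2, whose loss causes a cardiomyopathy in people, read 0.77, 0.79 and 0.97 in si-uc.323 cultures, against 0.53, 0.79 and 0.62 in si-scramble cultures (0.20 ± 0.12, adjusted p = 0.335), and replicate 2 of si-scramble reached into the si-uc.323 range. Mcoln1, the lysosomal calcium channel, was at 0.07 ± 0.15 (adjusted p = 0.782), and its sign turned with normexp, with the median shift and without si-uc.323 replicate 1.

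Tfeb and its relatives bind an E-box, CACGTG, most strongly in the extended form TCACGTGA. Both were searched in the promoters of RefSeq (build GRCr8, 250 bases before to 50 after the start). Both motifs read the same on either strand, and every extended match is also a core match. The core was found in 9 of the 30 promoters matched to the set (30.0%), beside 6.65% of 27457 promoters, and the extended form in 5 (16.7%), beside 0.867%. Becn1, Bnip3l, Ctsb, Fundc1, Hexa, Map1lc3a and Rb1cc1 were not matched. Of the 9 lysosome promoters 4 held the extended form, those of Atp6v0d1, Ctsd, Lamp1 and Mcoln1, and the fifth was that of Atg3. Stretches of these 5 promoters upstream of the start are shown because they hold the motif beside genes that did not pass, with the core in capitals. The Pink1 stretch is added because it was the one called gene with a matched promoter, and it holds the core alone. For Mcoln1 the upstream core is shown, since its extended match lies after the start.
Lamp1 (chr16:83075064-83075141, minus strand): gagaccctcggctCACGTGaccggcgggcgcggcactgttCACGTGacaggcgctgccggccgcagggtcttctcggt
Ctsd (chr1:206968822-206968871, minus strand): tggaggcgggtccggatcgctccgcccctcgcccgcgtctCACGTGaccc
Atp6v0d1 (chr19:50357255-50357340, minus strand): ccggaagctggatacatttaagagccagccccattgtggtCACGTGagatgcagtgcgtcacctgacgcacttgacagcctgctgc
Mcoln1 (chr12:6358196-6358257, plus strand): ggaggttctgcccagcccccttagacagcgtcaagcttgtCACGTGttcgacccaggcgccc
Atg3 (chr11:69159281-69159336, minus strand): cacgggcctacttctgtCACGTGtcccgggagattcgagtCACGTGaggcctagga
Pink1 (chr5:155826003-155826088, minus strand): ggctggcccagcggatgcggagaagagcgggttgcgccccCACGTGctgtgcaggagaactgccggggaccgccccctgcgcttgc

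The Lamp1 promoter held 5 cores, with first bases at -183, -167, -150, -65 and -38 from the start, and the last 2 are in the stretch printed. Measured genes with the core in the promoter had a median log2 fold change of 0.07 (9 genes, 5 positive), and those without it 0.15 (19 genes, 10 positive). The motif is a description of these windows and not evidence of binding.

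The spread was wider among si-uc.323 cultures. The SD was larger there than among si-scramble cultures for 31 of the 35 genes, beside 82.0% of all genes, with a median SD of 0.23 in si-uc.323 and 0.09 in si-scramble (0.21 and 0.10 over all genes). All 3 si-uc.323 values lay on one side of the si-scramble mean for 24 of the 35 genes, beside 56.8% of all genes. Replicate 3 of si-uc.323 gave the highest value of its group for 16 genes and the lowest for 12, and replicate 2 the lowest for 18. Replicate 2 and replicate 3 were on the same slide.

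Over all genes the sign of the median difference moved with the brightness of the probe. In the set only the brightest range had a negative median. Among the 11 genes whose probe lay above 2 on the log2 scale, 1 (Ctsl) was positive and 10 were negative, with a median of -0.29, beside a median of -0.12 for the 1311 genes of the whole array in that range. Among the 7 genes between -4 and -2, 6 were positive, with a median of 0.28, beside 0.12 for 2633 genes. The ranges from -2 to 0 and from 0 to 2 each held 8 genes of the set, 5 positive and 3 negative. The median of the set was 0.15 in both, beside 0.05 and -0.08 for all genes. Over all genes these medians were strongest on si-uc.323 replicate 3 (-0.27 above 2 and 0.27 between -4 and -2), while replicate 1, on the slide of the controls, gave -0.08 and 0.06 and replicate 2 gave -0.01 and 0.02.

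Among the 9 genes with more than 1 probe tested, the brightest and the dimmest probe differed in sign for 5 (Atg10, Atp6v1a, Gabarapl1, Gabarapl2 and Map1lc3b). In each of these the brightest probe was negative and the dimmest positive. Of all 9 genes, the dimmest probe read above the brightest for 6. It read below the brightest for Atg14 (-0.74 against -0.08), Atg5 (0.30 against 0.61) and Sqstm1 (0.17 against 0.23). With cyclic loess normalization, which levels the fold change over brightness, 9 of the 11 brightest genes were negative and 2 positive (median -0.23). The part of probe brightness in these differences was not tested. Under cyclic loess Becn1 was at 0.76 (adjusted p = 0.0304) and Pink1 at -0.47 (adjusted p = 0.0394).

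**Figure D4:**
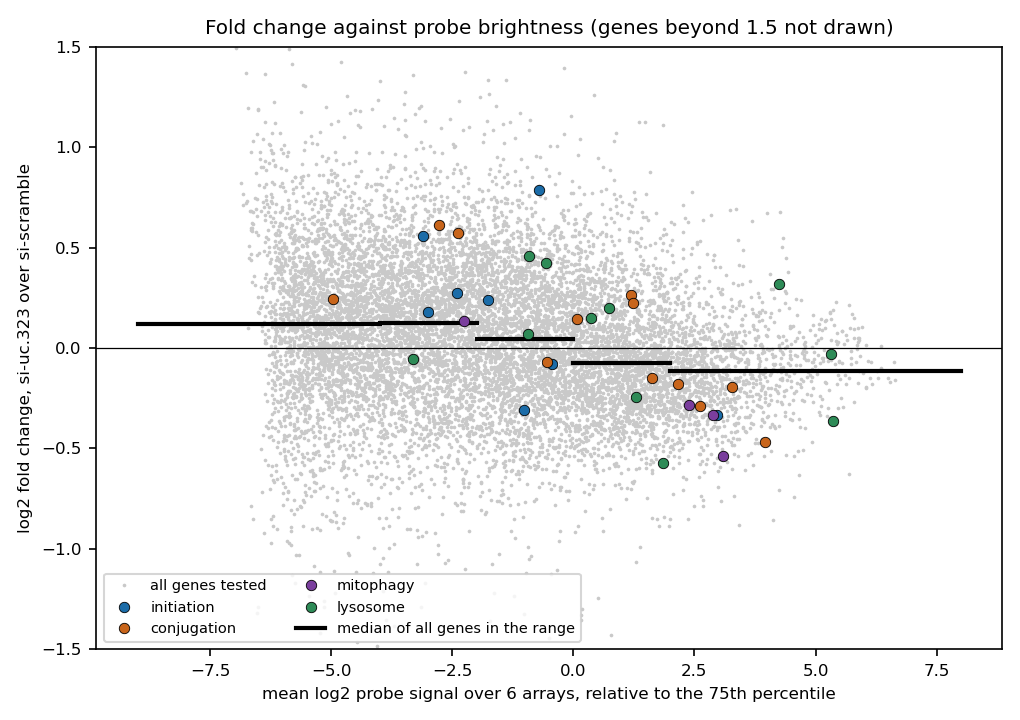
Log2 fold change (y axis) against mean log2 probe signal over 6 arrays (x axis) for all genes tested (grey) and the 35 genes of the set (coloured by role). Black bars are the median of all genes in 5 ranges of signal, 0.12 in the 2 dimmest ranges and -0.12 in the brightest, and 10 of the 11 genes of the set above 2 lie below 0.

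Among other genes of the pathway the share called was near that of the array. Of 156 listed genes 136 were tested, and 3 rose and 4 fell (5.15%, beside 6.14% of all genes), with a median of 0.02. The largest difference was that of Lgmn, the asparaginyl endopeptidase legumain, which cuts cathepsins to their mature forms. It read 0.43, 0.36 and 0.69 in si-uc.323 cultures, against -0.95, -0.80 and -0.95 in si-scramble cultures. The groups were more than 1 log2 unit apart, and Lgmn rose 2.63-fold (1.39 ± 0.13, adjusted p = 0.0111). It passed without each si-uc.323 array in turn but not without any si-scramble array (adjusted p = 0.0744, 0.055 and 0.093 without replicates 1, 2 and 3), and its value on slide 1 was 1.33 (adjusted p = 0.0636).

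Calcoco1, a receptor for autophagy of the endoplasmic reticulum, read 3.07, 2.97 and 2.77 in si-uc.323 cultures, against 3.57, 3.69 and 3.78 in si-scramble cultures, and was 1.67-fold lower (-0.74 ± 0.13, adjusted p = 0.0293). Atp6v0a1, which anchors the proton pump in the membrane, was lower by -0.58 ± 0.13 (adjusted p = 0.0467), and Atp6v0d2, the isoform of Atp6v0d1 best known from osteoclasts and macrophages, by -0.52 ± 0.10 (adjusted p = 0.0386). Acp2, the lysosomal acid phosphatase, was lower by -0.59 ± 0.13 (adjusted p = 0.0482). For these 4 genes the groups did not overlap. Atp6v0a1 did not pass with quantile scaling (adjusted p = 0.0534) or with the authors' log2 values (0.0537), and Atp6v0d2 did not pass with normexp (0.0561).

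Vps16, a subunit of the complex that tethers autophagosomes to lysosomes, was higher by 0.82 ± 0.18 (adjusted p = 0.0494), but its difference was 0.25 with normexp (adjusted p = 0.233). Tbk1, a kinase that phosphorylates cargo receptors, was higher by 0.68 ± 0.15 at the very edge of the threshold (adjusted p = 0.0499995), and by 0.39 with normexp (adjusted p = 0.0977). None of these 7 genes passed when any si-scramble array was left out, with the slide block, on slide 1 alone or with no background filter, and with the replicate block only Lgmn passed (adjusted p = 0.0203). No gene passed among the 13 other initiation genes, the 19 other lysosomal membrane and transport genes or the 13 MiT/TFE regulators (relatives of Tfeb, the Rag, Ragulator and folliculin factors that hold it at the lysosome, and the transcription factors Foxo3 and Zkscan3), whose medians were -0.04, 0.01 and 0.03.

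**Figure D5:**
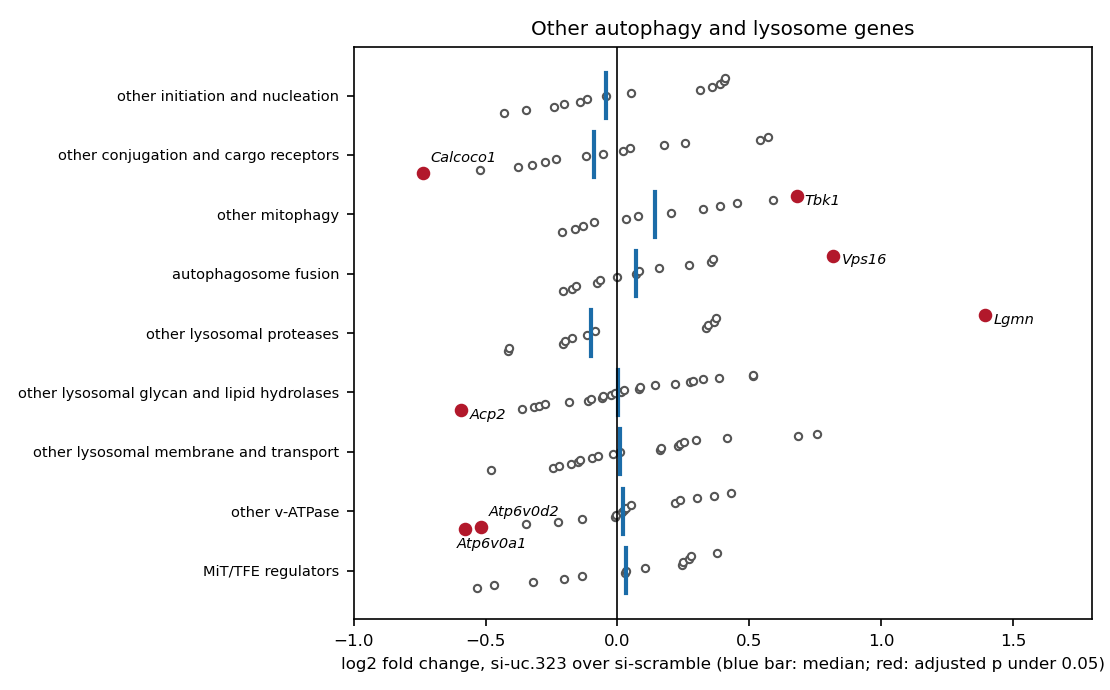
Log2 fold change (x axis, si-uc.323 over si-scramble) of 136 other tested genes in 9 lists, 1 point per gene. Red points have an adjusted p under 0.05 (3 higher, 4 lower), blue bars are list medians, which lie between -0.10 and 0.14, and Lgmn at 1.39 stands farthest from 0.

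Lysosome genes are also abundant in macrophages and fibroblasts, so markers of other cells were read on the same arrays. The summed signal of 12 of 12 macrophage markers was 15.6 to 20.0 in si-uc.323 cultures and 18.1 to 18.5 in si-scramble cultures, overlapping ranges. Cx3cr1 was called lower (-1.60, adjusted p = 0.0462) and none higher. Lyz2, the brightest of the 12, weighed most in that sum, and its groups overlapped (-0.03). Sums without Lyz2 were not analysed here. Of the 12, 7 had positive and 5 negative differences. The groups were apart for 3 lower markers (Cx3cr1, Cd68 at -0.41 and Cd14 at -0.21) and 1 higher (Adgre1 at 0.42). For 7 of 7 fibroblast markers the sums were 125.0 to 156 in si-uc.323 and 123 to 133 in si-scramble cultures, with Postn higher (0.69, adjusted p = 0.0312). Col1a1 and Col1a2, the brightest of the 7, had overlapping groups (0.04 and 0.08). Of the 7, 5 had positive and 2 negative differences. Besides Postn, the groups were apart only for Col3a1, which was higher (0.50, adjusted p = 0.0638). For 5 of 6 endothelial markers they were 5.52 to 8.56 in si-uc.323 and 11.0 to 12.4 in si-scramble cultures, with none called. Kdr alone made up 85.0% to 90.5% of that sum in si-uc.323 and 88.2% to 92.4% in si-scramble cultures, and without it the sums overlapped, at 0.782 to 1.1 in si-uc.323 and 0.948 to 1.3 in si-scramble cultures. Tek had a positive difference with groups apart (0.46, adjusted p = 0.165). Tie1 did too (0.73), but it was well above background on 3 si-uc.323 and 0 si-scramble arrays. It was therefore tested only through the group in which it was higher. For 5 of 5 smooth muscle and pericyte markers the sums were 8.73 to 10.2 in si-uc.323 and 8.31 to 8.85 in si-scramble cultures, with none called. Pdgfrb and Cspg4, the brightest of the 5, had overlapping groups (0.12 and -0.03). Of the 5, 4 had positive and 1 a negative difference, with a median of 0.41. The groups were apart for Myh11 (0.56, adjusted p = 0.0797) and Rgs5 (0.42, adjusted p = 0.0908), both higher. No list had a marker that was below background on all arrays. In these cultures fewer cells of a type and less RNA per cell cannot be told apart, and the part of cell makeup in the differences above was not tested.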

How the data were processed

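Total RNA of 6 rat myocyte cultures was amplified, labelled with Cy3 and read on 1-colour Agilent arrays of design 028282, 3 per group. Per the file headers, the deposited spot intensity is linear and had its background removed and its spatial trend corrected by the authors' scanner software. The submitters' processing notes name Agilent Feature Extraction 11.0.1.1. The authors also deposited log2 values of unstated scale and centring, whose 6 columns share their quartiles, and these served as an alternative.

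Control spots and 322 to 594 outlier spots of 42877 per array were left out, and 0 spots were saturated. Log2 intensity was shifted by the 75th percentile of its array (1182 to 1775 intensity units) and averaged per probe. A probe was tested where every array of one group or the other had it well above background. Genes were named by unversioned accession through RefSeq (GRCr8): 18005 of 30367 probes matched 1 gene, 0 matched several and 12362 were unnamed. Groups, taken from the sample titles, were compared over 19920 features with lmFit and eBayes of limma 3.58.1 (R 4.3.3, data.table version 1.17.8), with 4 residual degrees of freedom and Benjamini-Hochberg adjustment. The code was tested on simulated data. Figures used matplotlib 3.10.9 and pandas 2.3.3 under Python 3.11.15.

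The cultures are described as independent experiments without a named litter, so the p-values cover only the variation among these 6 samples, and that number limits the precision. Slides came from scan identifiers shared between headers. The genes and lists were chosen with earlier results of these data known. Values on every array are given for genes of the set past the threshold, for the 3 lowest p-values of each role (all 4 mitophagy genes) and for the Ulk, LC3, GABARAP and Lamp genes. Other pathway genes are named where they passed. Alternatives were normexp (offset 50, on median spot intensity), quantile, median and cyclic loess scaling, the authors' log2 values, 2 other background filters, the mean over probes, replicate and slide blocks, slide 1 alone and leaving out each array.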

Additional observations from a re-analysis of the deposited data

How the results depend on the processing

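Of the 35 genes, 26 kept the sign of their difference under all 17 alternatives and 9 changed it under at least 1, none of these 9 having passed the threshold, and the median of the set lay between -0.033 and 0.19. The number of genes called over the array was 711. It was 404 with the replicate number as a block, 3 with the slide as a block, 1182 with cyclic loess, 0 on slide 1 alone (3639 at an unadjusted p under 0.05, limma) and 0 with no background filter (3110), and it ranged from 0 to 1859 when single arrays were left out. The genes of the set that passed as higher, 1 in the reported fit, numbered 2 with cyclic loess, 0 with the slide block, on slide 1 or with no filter, and 0 to 4 without single arrays. Those that passed as lower, also 1, numbered 2 with normexp, the median shift, the filter on all arrays and the mean over probes, 0 with either block, on slide 1 or with no filter, and 0 to 2 without single arrays. Of the other pathway genes, 3 were higher and 4 lower. Higher ones numbered 1 with the replicate block, 5 with cyclic loess, 0 with the slide block, on slide 1 or with no filter, and 0 to 15 without single arrays. Lower ones numbered 0 with either block, on slide 1 or with no filter, and 0 to 7 without single arrays. With the replicate block Becn1 passed (adjusted p = 0.0437) and Pink1 did not (0.0745). At an unadjusted p under 0.05 the set held 9 genes with the replicate block, 6 with the slide block, 12 on slide 1 and 8 with no filter. Same-numbered samples of the 2 groups deviated with correlations of 0.20, 0.39 and -0.12, so the numbers were not taken as a pairing. The cause of the calls lost without single arrays was not tested. Cyclic loess was chosen after seeing the data. Of the called genes 53.0% were higher, against 35.6% with the median shift, 41.1% with quantile scaling, 41.4% with the authors' log2 values, 42.6% with normexp and 43.0% with cyclic loess.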
